A study of Mus musculus with 12 samples.

Results

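Macrophages of the trigeminal ganglion were followed through 10 genes that mark them: the C1q chain genes C1qa, C1qb and C1qc, the receptor genes Csf1r and Cx3cr1, the lysosomal gene Cd68, the cytoskeletal gene Aif1 and the scavenger receptor genes Mrc1, Cd163 and Lyve1. They were chosen by symbol, as known macrophage genes, and all 10 had an entry among the 51341 genes of the deposited table. The ganglia, which hold the sensory neurons of the face and meninges, came from 12 mice of the outbred CD1 stock. PACAP (pituitary adenylate cyclase-activating polypeptide) is a neuropeptide linked to migraine, and the series is about light aversion after PACAP. Of the mice, 6 had responded to PACAP (responders 1, 2 and 6 male, responders 3, 4 and 5 female) and 6 had not (nonresponders 2, 4 and 5 male, nonresponders 1, 3 and 6 female). Ganglia were flash frozen and RNA was sequenced after poly A selection, with 1 library per mouse. The sources used here give neither the scoring of a response nor the time between PACAP and dissection, and no untreated group was part of the comparison.

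Macrophages are resident immune cells that clear debris and sense injury, and in sensory ganglia they lie around neuron cell bodies, along vessels and in the connective tissue sheath. Their survival depends on signals through the receptor that Csf1r encodes. C1q, which opens the classical pathway of complement, is assembled from A, B and C chains and is made mainly by tissue macrophages, while Mrc1, Cd163 and Lyve1 are typical of macrophages along vessels and at tissue borders.

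The C1q genes lie side by side on chromosome 4, all on the minus strand, with C1qb at 136880129 to 136886187, C1qc at 136889804 to 136893065 and C1qa at 136895917 to 136898803 in GENCODE M21 (GRCm38). The stretches just upstream of C1qb (chr4:136886201-136886450, minus strand) and C1qc (chr4:136893066-136893164, minus strand) are shown from the RefSeq promoter table (GRCm38.p6) because these neighbours had the steadiest ratio of levels of any pair in the set. Each runs 5′ to 3′, ends upstream of the annotated gene, and has in capitals the letters GAGGAA or, on the other strand, TTCCTC, a core recognised by the myeloid factor PU.1, the product of Spi1.
C1qb: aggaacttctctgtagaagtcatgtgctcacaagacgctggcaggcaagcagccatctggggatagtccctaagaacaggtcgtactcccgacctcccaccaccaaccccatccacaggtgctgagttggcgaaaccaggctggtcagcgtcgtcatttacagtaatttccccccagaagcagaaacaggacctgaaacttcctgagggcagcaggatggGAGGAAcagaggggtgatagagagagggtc
C1qc: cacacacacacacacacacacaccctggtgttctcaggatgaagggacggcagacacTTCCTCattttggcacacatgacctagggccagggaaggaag
The RefSeq table, which takes 250 bases before and 50 after each start, held promoters for 7 of the 10 genes. GAGGAA or TTCCTC was in 5 of those 7 (C1qb, C1qc, Cd68, Aif1 and Mrc1) and not in the windows of Cx3cr1 and Cd163. Of 32851 promoters of 300 bases in the table, 28.3% held it on either strand.

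The other genes are spread over the genome. Csf1r lies on chromosome 18 at 61100598 to 61132149, Cd68 on chromosome 11 at 69664213 to 69666153, Aif1 on chromosome 17 at 35170991 to 35176068, and Cx3cr1 on chromosome 9 at 119901616 to 120069879. Mrc1 lies on chromosome 2 at 14229392 to 14332057, Cd163 on chromosome 6 at 124304656 to 124330527, and Lyve1 on chromosome 7 at 110850607 to 110863239. Of the 5774 exon bases of Csf1r, 873 are shared with Hmgxb3 on the opposite strand, which was listed at 7.68 to 10.4 FPKM, and Cx3cr1 shares 78 exon bases with the antisense gene Gm33858, listed at no more than 0.102 FPKM. Use of read strand is not stated, so reads of Csf1r and Hmgxb3 in the shared bases cannot be told apart.

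FPKM is a level per length of transcript and per depth of library. It ranged in total from 286388 to 358590 per mouse, and the implied depth was 17300000 to 38700000 fragments. Sensory neuron genes were abundant in every mouse, with a summed FPKM of 2950 to 5832 for 12 genes. Nonresponder 4 and responder 1 stood apart. Nonresponder 4 had a summed FPKM of 12 neutrophil genes of 4347, against at most 893 in any other mouse, and responder 1 had a summed FPKM of 9 pituitary genes of 77932, against at most 6854. The first part of each mouse's description was a number (44, 45, 48 or 49 in responders, 68, 82 or 83 in nonresponders). Its meaning is not given, and since no number held mice of both groups, it cannot be told apart from the response.

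Macrophage genes as a set did not separate responders from nonresponders. Of the 10 genes, 9 entered the test over all genes (limma on log2(FPKM + 1), at least 1 FPKM in at least 3 mice). None was called at an adjusted p under 0.05 (0 of 9, where 0.0211% of all 14203 genes were called), and 0 had an unadjusted p under 0.05, against 7.4% of all genes. Responders had the higher fitted value in 5 and the lower in 4, with a median log2 fold change of 0.015, and over all genes tested the median was 0.0034, with 49.3% lower in responders. The range of values of responders and nonresponders overlapped for all 10 genes, and 0.549% of all genes tested had groups that did not overlap. The 95% intervals of the 9 fold changes lay within 0.618-fold and 1.79-fold on the scale of FPKM + 1, which understates changes of low genes. Aif1, with a median of 0.704 FPKM, gave the upper bound, and changes of FPKM itself can lie beyond these bounds. The interval was 0.698 to 1.05 for Lyve1, the gene with the smallest SE, and 0.629 to 1.64 for C1qb, the gene with the largest. In bulk tissue, fewer macrophages and less RNA per macrophage cannot be told apart. The p-values set each difference against the spread between these mice, taking each mouse as independent.

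**Figure D1:**
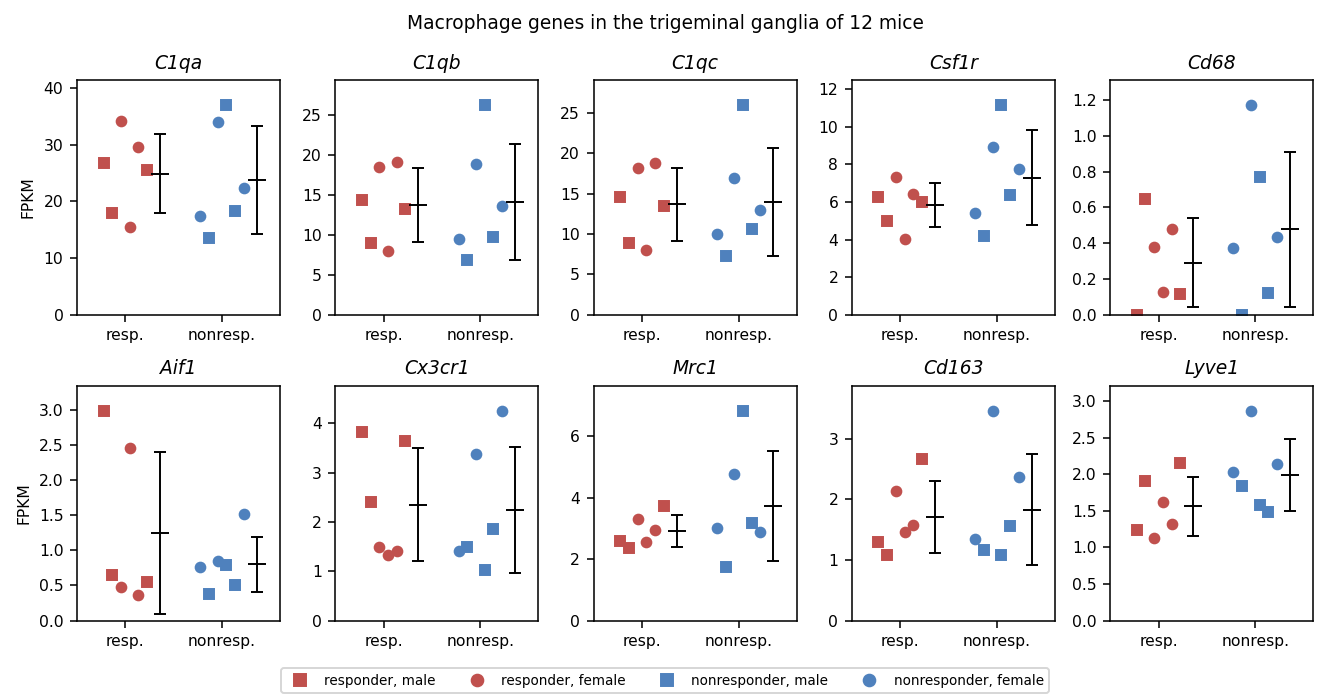
FPKM of each macrophage gene (vertical axes, linear and from 0) in each responder (red) and nonresponder (blue), males as squares and females as circles; black bars are the group mean and SD (n = 6). The groups overlap in every panel, and the C1q genes and Csf1r peak in 1 nonresponder male, nonresponder 4.

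C1qa, the A chain gene, had the highest level of the set. In responders its FPKM ran from 15.5 through a median of 26.1 to 34.1 (mean 24.9 ± 7.02, SD, n = 6), and in nonresponders from 13.5 through 20.3 to 37.0 (23.8 ± 9.55, SD, n = 6). The highest and the lowest mouse were both nonresponders, nonresponder 4 and nonresponder 2. Its log2 fold change was 0.10 ± 0.268 (SE) with an adjusted p of 0.941.

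C1qb, the B chain gene, ran from 8.01 to 19.1 FPKM in responders with a median of 13.8, and from 6.86 to 26.2 in nonresponders with a median of 11.6. C1qc, the C chain gene, was nearly level with it, at 7.95 to 18.8 in responders (median 14.1) and 7.26 to 25.9 in nonresponders (median 11.8). For both, nonresponder 4 was highest, nonresponder 2 lowest and responders lay between them. The log2 fold changes were 0.02 ± 0.316 for C1qb (SE, adjusted p = 0.988) and 0.02 ± 0.299 for C1qc (SE, adjusted p = 0.991), and the sign of each depended on which mouse was in the fit.

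The chain genes kept a nearly fixed ratio from mouse to mouse. The ratio of C1qb to C1qc stayed between 0.916 and 1.11 over the 12 mice, and the SD of its log2, 0.0725, was the smallest of the 36 pairs among the 9 tested genes. Next came C1qa against C1qc, with an SD of 0.147, and C1qa against C1qb, with 0.154. C1qb by itself had an SD of 0.596 on the log2 scale. The ratio of C1qa to C1qb was lowest, at 1.41, in nonresponder 4 and reached 2.01 in responder 2. These are descriptions over 12 mice in which the genes share library, depth and tissue composition.

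**Figure D2:**
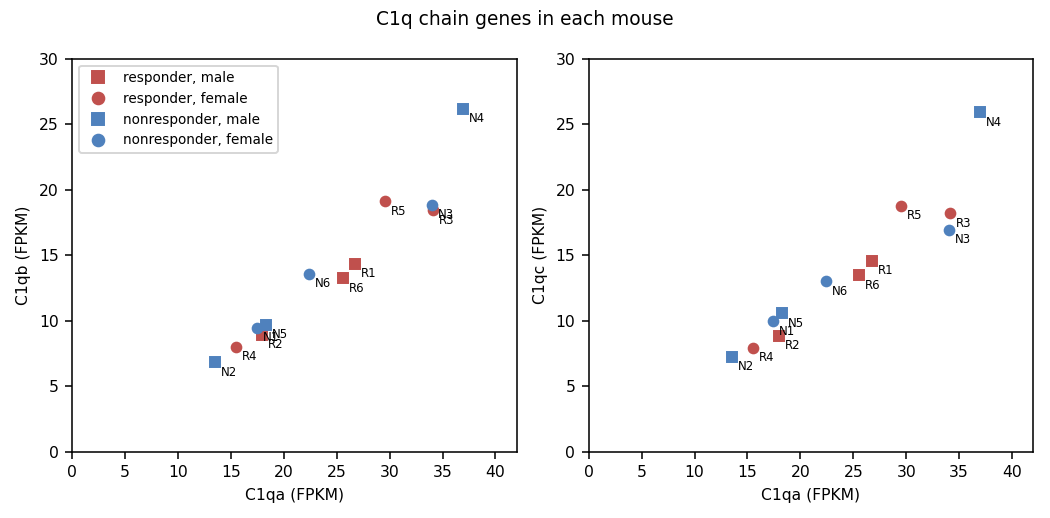
FPKM of C1qb (left) and C1qc (right) against FPKM of C1qa in each mouse, all axes linear from 0; R marks responders, N nonresponders. The points of both groups lie along 1 band from nonresponder 2 (13.5 FPKM of C1qa) to nonresponder 4 (37.0).

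Csf1r, the receptor for the growth factors CSF-1 and IL-34, was the next most abundant. Responders ranged from 4.02 to 7.33 FPKM with a median of 6.12 (mean 5.83 ± 1.17, SD, n = 6), and nonresponders from 4.21 to 11.1 with a median of 7.06 (7.30 ± 2.52, SD, n = 6). Only nonresponders 3, 4 and 6 exceeded all responders. The log2 fold change of -0.24 ± 0.205 (SE) was the lowest of the 9, with an adjusted p of 0.790, and it was -0.14 without nonresponder 4 and responder 1. Its ratio to C1qa varied less than most: C1qa was 2.87 to 4.65 times Csf1r in every mouse. The geometric mean of C1qa over Csf1r was 4.20 in responders and 3.21 in nonresponders, a difference that was not tested.

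Cx3cr1, the receptor for the neuronal chemokine fractalkine, ran from 1.33 to 3.83 FPKM in responders (median 1.95) and from 1.03 to 4.24 in nonresponders (median 1.68). High values were in responders 1 and 6 and nonresponders 3 and 6, and the lowest was in nonresponder 4, the mouse with the highest Csf1r. The ratio of Csf1r to Cx3cr1 was 10.8 in nonresponder 4 and between 1.63 and 4.92 in the others. Between responders and nonresponders its log2 fold change was 0.07 ± 0.282 (SE) with an adjusted p of 0.963, and it changed sign, to -0.17, without responder 1 and nonresponder 4.

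Aif1, which encodes the actin-binding protein Iba1, spread the most of the 9 tested genes, with an SD of 0.997 on the log2 FPKM scale. From the implied depth it had about 15.2 to 141 fragments per mouse, and its median of 28.3 was the lowest of the 9. The part of such low numbers in its spread was not tested. In responders it ran from 0.365 through a median of 0.596 to 2.98 FPKM, and in nonresponders from 0.375 through 0.777 to 1.52. Responder 1, at 2.98, and responder 4, at 2.46, stood above all other mice, and with nonresponder 6 they were the 3 mice at or above 1 FPKM that took the gene into the test. Its log2 fold change was 0.20 ± 0.290 (SE) with an adjusted p of 0.881. Responder 4 had the lowest C1qa of its group, and responder 1, at 26.7 FPKM, lay close to its median.

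Cd68, a lysosomal glycoprotein gene used widely to stain macrophages, was hardly listed. Its FPKM was 0 in responder 1 and nonresponder 2, at most 0.645 in the other responders and at most 1.17 in nonresponders, and its median over all mice was 0.376, against 24.0 for C1qa. From the implied depth, that median stands for about 13.2 fragments. The gene did not enter the test for lack of mice at 1 FPKM. With no filter on low values its log2 fold change was -0.17 with an adjusted p of 0.869.

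Mrc1, the mannose receptor gene, had a narrow range in responders, 2.35 to 3.72 FPKM with a median of 2.77 (mean 2.92 ± 0.525, SD, n = 6). In nonresponders it ran from 1.75 to 6.82 with a median of 3.11 (3.74 ± 1.79, SD, n = 6). Both ends were nonresponders again, nonresponder 2 and nonresponder 4. The log2 fold change was -0.21 ± 0.220 (SE) with an adjusted p of 0.838, and it shrank to -0.02 without nonresponder 4 and responder 1.

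Cd163, the receptor that takes up haemoglobin bound to haptoglobin, did not follow Mrc1 in every mouse. It was listed at 1.09 to 2.67 FPKM in responders (median 1.52) and 1.09 to 3.45 in nonresponders (median 1.45), highest in nonresponder 3. In nonresponder 4, which had the most Mrc1, Cd163 was at 1.09, close to the lowest of all. The ratio of Mrc1 to Cd163 was thus 6.27 there and between 1.21 and 2.25 in the other mice. The log2 fold change of Cd163 was -0.04 ± 0.189 (SE) with an adjusted p of 0.971.

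Lyve1, a hyaluronan receptor gene shared with lymphatic endothelium, varied least of the 9 tested genes, with an SD of 0.386 on the log2 FPKM scale. Its FPKM ran from 1.13 through a median of 1.47 to 2.15 in responders and from 1.48 through 1.94 to 2.86 in nonresponders. Nonresponder 3 was the only mouse above the highest responder, and responders 1, 3 and 5 lay below every nonresponder. Its log2 fold change of -0.22 ± 0.134 (SE) had the smallest p of the set, 0.124, and an adjusted p of 0.736. Summed FPKM of 6 lymphatic endothelial genes was 10.5 to 17.2 in responders and 9.48 to 20.4 in nonresponders. Its highest mouse was also nonresponder 3. Reln was the largest term of that sum in most mice, at 5.90 to 13.1 in responders and 4.81 to 9.68 in nonresponders. Prox1 was at 0.120 to 4.36 and 0.285 to 1.27. How far the sum stands for lymphatic endothelium, and the part of such cells in the Lyve1 values, was not tested.

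By median FPKM over the 12 mice, which is per length, the order was C1qa (24.0), C1qb (13.4), C1qc (13.3), Csf1r (6.31), Mrc1 (2.99), Lyve1 (1.73), Cx3cr1 (1.68), Cd163 (1.51), Aif1 (0.704) and Cd68 (0.376). C1qa exceeded C1qb, C1qc exceeded Csf1r, and Csf1r exceeded Mrc1 in all 12 mice, and Mrc1 exceeded Lyve1 in 11. C1qb and C1qc changed places (C1qb higher in 7 mice), as did Lyve1 and Cx3cr1 (Lyve1 higher in 4) and Cx3cr1 and Cd163 (Cx3cr1 higher in 7). Those neighbours did not differ beyond their spread.

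Nonresponder 4 had the highest value of 5 of the 10 genes (C1qa, C1qb, C1qc, Csf1r and Mrc1) and the lowest of Cx3cr1. Nonresponder 3 was highest in Cd68, Cd163 and Lyve1, and nonresponder 2 was lowest in 5. Summed over the 10 genes, FPKM ran from 38.5 in nonresponder 2 to 112 in nonresponder 4. In nonresponder 4 the summed FPKM of 6 monocyte genes was 312, against at most 66.4 elsewhere, and that of 24 other macrophage genes was 1074, against at most 569. Lyz2 alone gave 606 of the 1074, and 303 of the 569 in nonresponder 5, the next mouse. Some of those 24, such as Tyrobp, Itgam and Ptprc, are also made by neutrophils and monocytes, and the part of blood or marrow cells in this mouse's macrophage values was not tested.

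**Figure D3:**
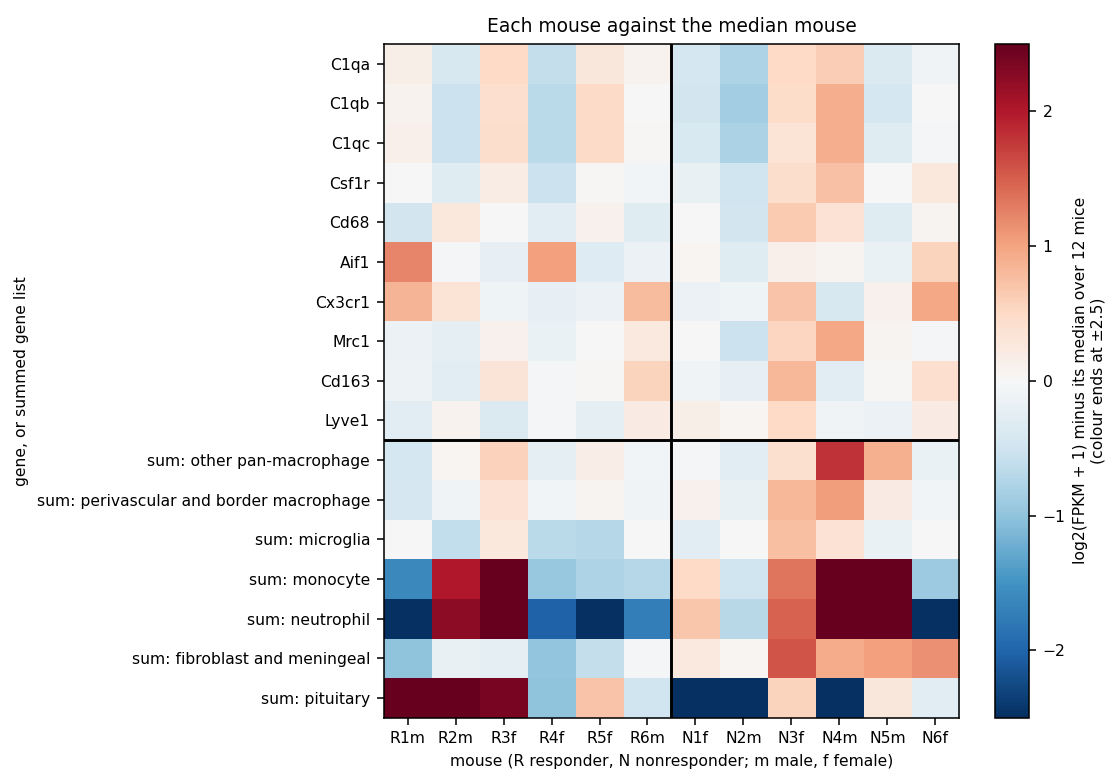
Each mouse against the median mouse, as log2(FPKM + 1) minus its median over 12 mice (red above, blue below, colour ends at ±2.5), for the 10 macrophage genes (upper block) and for the summed FPKM of 7 gene lists (lower block). The neutrophil and monocyte sums of nonresponder 4 (4347 and 312 FPKM) lie past the upper end of the colour scale, while its Cx3cr1 (1.03 FPKM) lies below the median.

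**Figure D4:**
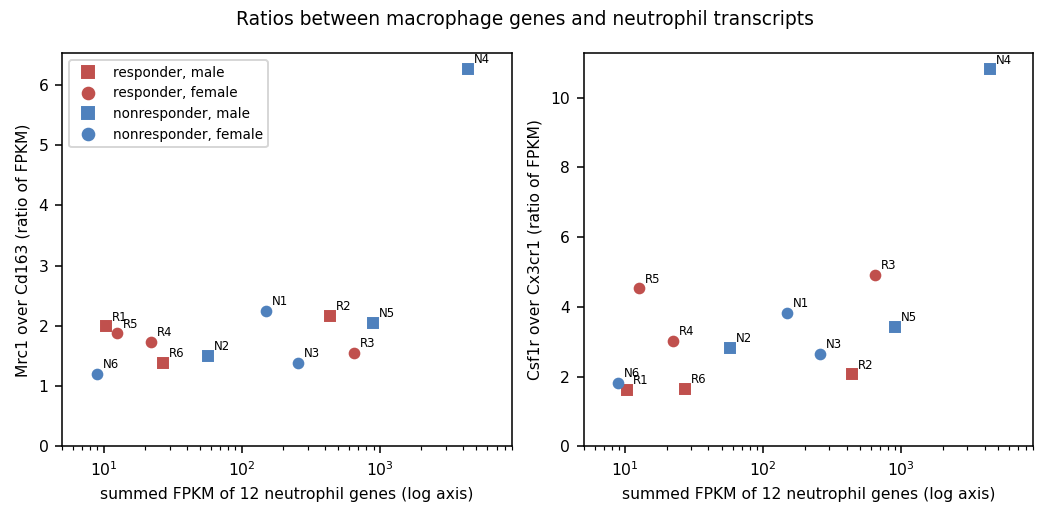
Ratio of Mrc1 to Cd163 (left) and of Csf1r to Cx3cr1 (right) in each mouse against the summed FPKM of 12 neutrophil genes (log axis); vertical axes are linear from 0. Nonresponder 4 (6.27 and 10.8) stands alone at the right, and nonresponder 5, with the next highest neutrophil sum of 893, has ratios of 2.05 and 3.42.

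Between the sexes, 0 of the 9 tested genes were called (limma, females against males with the response group as covariate; 0.0563% of all genes were), and 0 had an unadjusted p under 0.05, against 4.53% of all genes. The fitted value was higher in females for 8 and lower for 1, Cx3cr1. Cd163 had the largest fold change, 0.30 on the log2 scale (adjusted p = 0.864), with a mean of 2.06 FPKM in females and 1.48 in males.

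Whether the difference between responders and nonresponders was the same in both sexes was tested as an interaction. No gene was called (0% of all 14203, 0 of the 9), and 2 of the 9 had an unadjusted p under 0.05, Cx3cr1 and Lyve1, against 5.01% of all genes. For Cx3cr1, male responders were at 3.83, 2.40 and 3.65 FPKM and male nonresponders at 1.49, 1.03 and 1.87. Female responders were at 1.49, 1.33 and 1.42, and female nonresponders at 1.41, 3.37 and 4.24. Male responders thus lay above all male nonresponders, while in females 2 of the 3 nonresponders lay above all responders. The interaction, the female minus the male log2 fold change, was -1.46 ± 0.374 (SE), with an unadjusted p of 0.00286 and an adjusted p of 0.836. It was between -1.79 and -1.23 when any 1 mouse was left out, and between -2.12 (pseudocount 0.01) and -0.92 (array weights) over all 22 alternatives, whose adjusted p was 0.0924 or higher. Every description number held mice of 1 group and 1 sex only (44 and 48 male and 45 and 49 female responders, 82 male and 68 and 83 female nonresponders), so the numbers cannot be told apart from this difference.

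For Lyve1 the female groups did not overlap, at 1.13, 1.62 and 1.32 FPKM in responders and 2.03, 2.86 and 2.14 in nonresponders, whereas males did, at 1.24, 1.90 and 2.15 against 1.84, 1.58 and 1.48. The interaction was -0.56 with an unadjusted p of 0.0295 and an adjusted p of 0.836. Cx3cr1 in males and Lyve1 in females were the only genes of the 10 whose groups did not overlap within a sex, 1 of 10 in each, and the same held for 9.46% of all genes tested in males and 19.9% in females. With weights on each library, a fit that gave a convergence warning, 508 genes were called for the interaction and Lyve1 was among them (-0.67, adjusted p = 0.0334). Over the other settings the adjusted p of Lyve1 was at least 0.566.

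**Figure D5:**
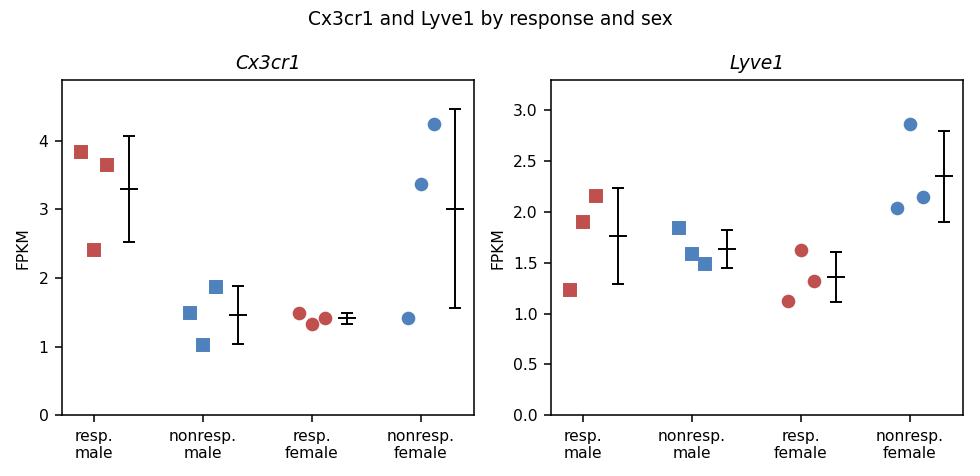
FPKM (linear axes from 0) of Cx3cr1 (left) and Lyve1 (right) in the 3 mice of each response group and sex, with the mean and SD in black. Cx3cr1 lies higher in male responders (2.40 to 3.83) than in male nonresponders (1.03 to 1.87), and Lyve1 lower in female responders (1.13 to 1.62) than in female nonresponders (2.03 to 2.86).

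The ligands and lineage factors of these cells gave no call either. Of 6 genes for ligands or their synthesis, 3 were tested, 1 higher and 2 lower in responders, and 0 were called or had an unadjusted p under 0.05. Their median was -0.16, or -0.11 without responder 1 and -0.10 without responder 3. The untested genes were Has1, Has2 and Has3, which encode enzymes that make hyaluronan, the ligand of the Lyve1 product. Csf1, the growth factor of Csf1r, averaged 4.41 ± 0.648 FPKM in the responder group and 5.54 ± 1.42 in the other (SD, n = 6), with a log2 fold change of -0.25 and an adjusted p of 0.737. Il34, the other ligand, had -0.16 (adjusted p = 0.854), and Cx3cl1, the ligand of Cx3cr1, had 0.05 (adjusted p = 0.972). Of 8 myeloid lineage factors, 7 were tested, with 6 lower and 1 higher in responders and a median log2 fold change of -0.20, which was -0.34 without responder 3 and -0.07 without nonresponder 4. Spi1 was at 1.08 to 4.05 FPKM in responders and at 1.43 to 5.24 in nonresponders other than nonresponder 4, which had 19.8. Cebpb, a factor of myeloid differentiation, had -0.33 (adjusted p = 0.694).

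Other macrophage genes had mostly lower fitted values in responders, none past the threshold. Of 24 further pan-macrophage genes, 20 were tested, 17 lower and 3 higher, with a median log2 fold change of -0.25 and 0 with an unadjusted p under 0.05, and the median was -0.45 without nonresponder 2, -0.02 without nonresponder 4 and 0.01 without responder 1 and nonresponder 4. Trem2, a lipid-sensing receptor gene, had 0.193, 0.0543, 0.0654, 2.33, 3.87 and 1.87 FPKM in responders 1 to 6 and 1.40 to 2.85 in nonresponders (log2 fold change -0.59, adjusted p = 0.747). Responders held both its lowest values and its highest. Of 12 genes of perivascular and border macrophages, 6 were tested, 5 lower and 1 higher (median -0.30; -0.44 without nonresponder 2, -0.19 without nonresponder 3, -0.17 without nonresponder 4). F13a1, a coagulation factor gene of such macrophages, had the smallest p of the list, with -0.49 (adjusted p = 0.769). Pf4, a chemokine gene made by such macrophages and by platelets, had -1.06 (adjusted p = 0.770) and was at 124 FPKM in nonresponder 4 and at most 33.4 in the others. Cbr2, a carbonyl reductase gene, had -0.68 (adjusted p = 0.788) and was at 61.4 FPKM in nonresponder 3 and at most 20.4 in the others.

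Of 8 microglia genes, 6 were tested and all 6 were lower in responders (median -0.16), 0 were called (limma), and 1, Tmem119, had an unadjusted p under 0.05; among all genes tested, 4.17% were lower at that level. Tmem119, which is also made by osteoblasts, was at 0.967 to 3.02 FPKM in responders (median 1.48) and 2.02 to 6.49 in nonresponders (median 3.39). Only responder 3 reached into the range of nonresponders. Its log2 fold change was -0.84 ± 0.216 (SE), with an adjusted p of 0.445. Fcrls, a gene typical of microglia, was at or near 0 in all 12 mice. The median of the list was -0.24 without nonresponder 1 and -0.09, -0.08, -0.09 and -0.08 without responder 2, responder 4, nonresponder 3 and nonresponder 6, and -0.37 with a pseudocount of 0.01.

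Of 16 other complement genes, 10 were tested, 9 lower and 1 higher in responders (median -0.21), and none had an unadjusted p under 0.05 (0 called). That median was -0.11 without responder 1, -0.13 without nonresponder 3, -0.10 without nonresponder 4 and -0.06 without responder 1 and nonresponder 4. C4b, which is cleaved after C1q binds, averaged 13.2 ± 2.96 FPKM among responders against 17.9 ± 5.34 among nonresponders (SD, n = 6; log2 fold change -0.39, adjusted p = 0.679). Serping1, the inhibitor of the C1 complex, was at 54.0 ± 17.1 and 63.2 ± 16.6 (-0.24, adjusted p = 0.779). Cfb, of the alternative pathway, was the 1 gene with a positive value, 0.20 (adjusted p = 0.744). All 10 lysosome genes were tested, 6 lower and 4 higher, and their median was -0.02.

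Of 14 activation genes, 6 were tested and all 6 were lower (median -0.41), 0 with an unadjusted p under 0.05. That median was -0.23 without nonresponder 4, whose summed FPKM of the list was the highest, 249, and -0.73 with a pseudocount of 0.01. Spp1, which encodes osteopontin, was at 18.3 to 54.8 FPKM in responders and 15.8 to 168 in nonresponders (log2 fold change -0.95, adjusted p = 0.718). It was highest in nonresponder 4, where it alone gave 168 of the 249, and the cells it came from were not tested. Il1b, Tnf and Il6 could not be tested for low values. Genes of antigen-presenting cells had the other sign: 4 of 10 were tested and all 4 were higher in responders, Zbtb46 by 0.0023 only. Their median of 0.32 became 0.17 if responder 5 and 0.19 if responder 1 was left out, and reached 0.51 if responder 2 or nonresponder 4 was. Cd74, the invariant chain gene of class II, averaged 24.5 ± 9.38 FPKM among responders against 14.6 ± 5.10 among nonresponders (SD, n = 6). Its log2 fold change was 0.68 ± 0.296 (SE), with an adjusted p of 0.646; it was the 1 gene of the list with an unadjusted p under 0.05, and 3.23% of all genes tested were higher at that level.

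Markers of other cells are given beside these lists, and 0 genes of any of them were called. All 12 neutrophil genes were lower in responders (median log2 fold change -1.37, 0 with an unadjusted p under 0.05), and their summed FPKM was 10.3 to 649 in responders and 8.90 to 4347 in nonresponders. The ranges overlapped, and that median was -2.08 without responder 3, -0.66 without nonresponder 4 and -0.41 without responder 1 and nonresponder 4. All 4 tested monocyte genes were lower too, none with an unadjusted p under 0.05. Their median of -0.51 was -0.99 without responder 2, -0.77 without responder 3, -0.30 without responder 1, -0.33 without nonresponder 4 and -0.07 without responder 1 and nonresponder 4. Of 7 osteoclast genes, 3 were tested and all were lower (median -1.38), with Ctsk, a bone-resorbing protease gene, at -1.38 (adjusted p = 0.590) and the 1 with an unadjusted p under 0.05. The 10 fibroblast and meningeal genes had summed FPKM of 273 to 531 in responders and 574 to 1642 in nonresponders, ranges that did not overlap. By itself, each of the 10 genes had groups that overlapped. Ptgds, a large part of the sum, was at 72.6 to 330 in responders and 229 to 1193 in nonresponders. Single genes whose groups did not overlap were 0.549% of all tested. Of the 10 genes 9 were lower in responders, 8 with an unadjusted p under 0.05. Of 8 genes of myelinating Schwann cells 7 were lower, 5 with an unadjusted p under 0.05, with summed FPKM of 2288 to 4415 in responders and 4222 to 6243 in nonresponders. Pmp2, a myelin lipid-binding protein gene, had -1.39 (adjusted p = 0.259). Of 7 satellite glial genes 5 were lower, 2 with an unadjusted p under 0.05, and of 10 blood endothelial genes 9 were lower, 0 at that level. Over all genes tested, 4.17% were lower and 3.23% higher with an unadjusted p under 0.05. All 9 pituitary genes were higher in responders, 8 at that level, and each was highest in responder 1. Of 12 sensory neuron genes 10 were higher, 0 at that level. The part of these cells in the macrophage values was not tested.

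Genes whose levels ran most like the macrophage set were sought among all tested genes, by Pearson's r over the 12 mice with the mean of the 10 genes, each set to mean 0 and SD 1. They were Prelp (r = 0.922), a proteoglycan of connective tissue, Icam1 (0.918), an adhesion molecule of leukocyte traffic, 1500015O10Rik (0.918), Mfap4 (0.917), a matrix fibre protein, Gpr34 (0.902), a receptor of the microglia list, Foxc1 (0.899), Cped1 (0.899), Rab7b (0.891), Mrc2 (0.890), a collagen-binding relative of Mrc1, and Ntn1 (0.880), an axon guidance cue. Spearman's rho for these 10 lay between 0.811 and 0.902. Without nonresponders 2 and 3, the mice farthest from the median of the mean, r was between 0.770 and 0.904. These genes were picked for the highest r in the same mice. High rho, and high r in fewer of those mice, follow in part from that choice and are no independent check. The 10 genes themselves were not equally like their mean: r was 0.885 for Csf1r, 0.865 for C1qa and 0.807 for Mrc1, but 0.405 for Cx3cr1, 0.328 for Lyve1 and 0.0758 for Aif1. Each is part of that mean, which raises its r, so such an r cannot be set beside those of genes outside the set. All points share tissue, library and depth, and these values are given as a description.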

How the data were processed

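Trigeminal ganglia of 12 mice were compared by RNA sequencing. The submitters' processing notes name the tools STAR 2.6.0a and StringTie 1.3.5 and the builds GRCm38 and mm10; for their settings and annotation release, the sources used here give nothing. The authors deposited 1 table of values per Ensembl gene and mouse, taken as FPKM; the header names no unit, and FPKM was inferred from the values. Raw counts were not used: in single-exon genes 19.4% to 28.0% of values were whole fragments to within 0.05, too few to recover counts, and the implied depths are approximate. An FPKM of 0 is a listing and not proof of absence. No columns belonged to other samples (0) and none were identical (0 pairs).

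Symbols and coordinates came from GENCODE M21. Values were tested as log2(FPKM + 1), which understates changes of low genes, with limma 3.58.1 in R 4.3.3 on the 14203 genes that reached 1 FPKM in 3 or more mice, with sex as covariate (9 residual degrees of freedom), or response for the sex comparison, or 4 cell means for the interaction. Adjusted p values are Benjamini-Hochberg over all genes tested, 2-sided, threshold 0.05; the procedure was tested on simulated data. Each mouse is 1 replicate, by title. Named genes were all 10 macrophage genes, list genes at or near 0, and the 10 genes most like the set's mean. From each list, genes were also named from among the up to 4 with the smallest p, not always the smallest of all. Tyrobp, Itgam, Ptprc, Lyz2, Il1b, Tnf, Il6, H2-Aa, Fcer1g and Itgb2 were added after their values were seen. The macrophage genes and all lists were chosen with earlier results of these data known, so no list is independent evidence. A blastn 2.17.0 search of annotated transcripts (minimum 90% identity, 200 bases) matched 1 of the 10 genes to another gene, Csf1r to Hmgxb3. Promoters are from RefSeq. Alternatives were other pseudocounts, filters, scalings and limma options, a replicate block, leaving out mice, and averaging by description number.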

Additional observations from a re-analysis of the deposited data

Results flagged for a closer look

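The 10 macrophage genes, 4 ratios between them, 22 summed lists and 19 genes named from the lists were searched within the 6 mice of a group for 1 mouse whose gap to the nearest other exceeded Dixon's 95% limit, as a share of the group's range. This was done for 110 groups of values, and 14 values met it. Chance gives about 1 in 20 for independent, normally distributed values. Here single genes were also part of the summed lists, so the 14 cannot be set against that share. In nonresponder 4 the ratio of Mrc1 to Cd163 was 6.27 (next 2.25), the ratio of Csf1r to Cx3cr1 was 10.8 (next 3.83), and the summed FPKM was 312 for monocyte genes (next 66.4), 4347 for neutrophil genes (next 893) and 76.0 for lymphocyte genes (next 27.7). The same mouse had 19.8 FPKM of Spi1 (next 5.24), 13.8 of F13a1 (next 5.69) and 124 of Pf4 (next 33.4). Nonresponder 3 had 61.4 FPKM of Cbr2 (next 20.4). In responder 1 the summed FPKM of pituitary genes was 77932 (next 6854), and that of sensory neuron genes was the lowest of its group, 2950 (next 4847). Responder 5 had a ratio of C1qb to C1qa of 0.647 (next 0.540), and responder 3 had 3.02 FPKM of Tmem119 (next 1.72) and 25.7 of Pf4 (next 9.18). None of the 10 macrophage genes by itself had such a mouse.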

How the results depend on the processing

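No macrophage gene was called between responders and nonresponders or between the sexes under any alternative that was run. The 24 alternatives moved the log2 fold change of Csf1r between -0.38 and -0.11, Mrc1 between -0.36 and -0.02, Lyve1 between -0.35 and -0.14 and (over 19) Aif1 between 0.04 and 0.34, with no change of sign. Leaving out 1 mouse gave both signs for C1qa (-0.032 to 0.28), C1qb (-0.14 to 0.26), C1qc (-0.14 to 0.24), Cx3cr1 (-0.07 to 0.25) and Cd163 (-0.17 to 0.088), and for the lysosome median (-0.083 to 0.017, and -0.086 without responder 1 and nonresponder 4). Cx3cr1 also turned with array weights (-0.14), without responder 1 and nonresponder 4 (-0.17) and averaged by description number (-0.054), as did C1qb averaged so (-0.0075) and the median of the other pan-macrophage genes without responder 1 and nonresponder 4 (0.0088; -0.45 to -0.022 without 1 mouse). The cause was not tested.

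Genes called between responders and nonresponders went from 3 to 2 to 6 without 1 mouse (5 without responder 2, 6 without responder 5 or 6) and to 1 averaged by description number. For the interaction, 0 became 508 with array weights, 1 of them a macrophage gene, and 0 to 3 without 1 mouse. With the replicate block, 1 gene was called by response and 5, not 8, by sex, and the interaction of Cx3cr1 was -1.26 (unadjusted p = 0.116). The numbers 1 to 6 of both groups share only a number: the deviations of same-numbered mice correlated at -0.25 to 0.24, and none was most like its own partner.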

Other observations

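Some macrophage genes were listed far below genes usually made by the same cells. Fcer1g was at 0.0391 to 2.38 FPKM, while Tyrobp, which like it encodes an adaptor of immune receptors, was at 7.35 to 86.0. H2-Aa, the alpha chain of a class II molecule, was at 0.0466 to 1.73, while its beta chain H2-Ab1 was at 12.6 to 42.4. Itgb2, the partner of Itgam, was listed at 0 in 6 of the 12 mice, and Itgam in 1. Fcrls was at 0 in 11 mice and at 0.0039 in the other. These low values stand beside that of Cd68 (median 0.376), and their cause was not tested.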
